A study of Mus musculus with 4 samples.

Results

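The testis macrophage selection held 102 barcodes of the 19046 that held at least 3000 unique molecular identifiers (UMIs, 1 per captured RNA molecule) with mitochondrial genes at no more than 20% of them. A barcode marks the droplet that held a cell. Members were selected on measured values. They held at least 15 UMIs of *C1qa*, *C1qb*, *C1qc*, *Tyrobp* and *Fcer1g* together. The stromal genes *Col1a1*, *Col1a2*, *Col3a1* and *Dcn*, and the Sertoli genes *Cst12*, *Cst9*, *Rhox8*, *Amh* and *Aard*, each summed to under 0.5% of the UMIs, and *Ddx4* and *Dazl* to under 10 UMIs. The control library gave 42 members and the *Cnot3*-cKO library 60. Levels of these genes therefore describe the selection and are not a finding, and no gene of these cells against other cells was tested.

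Testes were taken on postnatal day 8, and their cells were enriched for germ cells with a sort on CD9 and THY1, a pair of surface proteins, and sequenced with a droplet kit that reads the 3′ ends of transcripts. Control mice were *Cnot3* flox/flox, which the labels call wild-type, and *Cnot3*-cKO mice were *Cnot3* flox/flox; *Ddx4*-creER, in which the germ cell gene *Ddx4* drives a Cre that acts after 4-hydroxytamoxifen (4OHT). Macrophages are not the cells that this driver targets. Both genotypes received 4OHT from postnatal day 1. The labels give a last day of 1 and 2 for the control samples and of 3 and 4 for the *Cnot3*-cKO samples, so genotype and the labelled length of treatment cannot be told apart. These days count up from sample to sample while the study's methods describe a single injection schedule for newborn mice, so the labelled days may be an entry error. The 2 samples of each genotype are merged in 1 matrix, and its barcodes do not carry the sample. Whether these 2 are separate cell suspensions or sequencing runs of the same library is not stated. The comparison is thus of 1 library with 1 library and holds no replicate, no p-value and no test. Intervals are 95% limits throughout and cover counting error only. Differences between animals, sorts and runs are not in them.

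Macrophages are phagocytes of the innate immune system. In the testis they lie between the seminiferous tubules, beside the steroid-producing Leydig cells, and on the tubule surface near spermatogonia, where they take up debris, handle iron and lipid and release growth factors. Their survival depends on the receptor CSF1R, and tissue-resident macrophages are marked in many organs by complement C1q, the mannose receptor MRC1 and the chemokine PF4. A separate type, rich in MHC class II proteins and partly renewed from CCR2-positive monocytes, presents antigen to T cells.

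The 3 C1q genes, whose products form the recognition molecule of the classical complement pathway, lie next to each other on the minus strand of chromosome 4 (GRCm38). *C1qb* spans chr4:136880129-136886187, *C1qc* chr4:136889804-136893065 and *C1qa* chr4:136895917-136898803. *Pf4*, a CXC chemokine, lies at chr5:90772435-90773383 and *Mrc1*, the mannose receptor, at chr2:14229392-14332057, both on the plus strand. All are protein coding. Promoter sequences, from 250 bases before to 50 bases after the annotated start, are shown for 4 of these because their RNA marks the cells described here. They are RefSeq sequences of GRCm38.p6, written 5′ to 3′ on the strand of the gene, and 5 of the 8 genes looked up had an entry. *C1qa*, *Tyrobp* and *Adgre1* are named only. Capitals mark GAGGAA on either strand (TTCCTC on the other), the core letters recognised by the macrophage transcription factor PU.1.
*C1qb*: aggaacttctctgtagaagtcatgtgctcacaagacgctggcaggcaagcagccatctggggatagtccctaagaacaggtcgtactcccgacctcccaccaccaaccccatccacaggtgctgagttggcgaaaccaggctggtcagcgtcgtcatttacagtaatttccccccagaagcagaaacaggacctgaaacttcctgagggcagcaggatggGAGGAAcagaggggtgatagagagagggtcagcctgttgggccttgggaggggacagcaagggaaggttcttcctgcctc
*C1qc*: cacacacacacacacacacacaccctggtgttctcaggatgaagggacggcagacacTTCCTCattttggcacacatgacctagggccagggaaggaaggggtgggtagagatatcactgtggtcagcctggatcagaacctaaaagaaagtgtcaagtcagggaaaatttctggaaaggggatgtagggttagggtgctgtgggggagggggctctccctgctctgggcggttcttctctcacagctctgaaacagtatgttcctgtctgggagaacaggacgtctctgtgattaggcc
*Mrc1*: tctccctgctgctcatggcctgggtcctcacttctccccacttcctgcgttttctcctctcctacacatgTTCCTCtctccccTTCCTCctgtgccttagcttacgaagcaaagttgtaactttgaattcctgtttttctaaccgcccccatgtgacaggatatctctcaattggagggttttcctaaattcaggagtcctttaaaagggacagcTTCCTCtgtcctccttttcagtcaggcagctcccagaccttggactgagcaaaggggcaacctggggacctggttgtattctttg
*Pf4*: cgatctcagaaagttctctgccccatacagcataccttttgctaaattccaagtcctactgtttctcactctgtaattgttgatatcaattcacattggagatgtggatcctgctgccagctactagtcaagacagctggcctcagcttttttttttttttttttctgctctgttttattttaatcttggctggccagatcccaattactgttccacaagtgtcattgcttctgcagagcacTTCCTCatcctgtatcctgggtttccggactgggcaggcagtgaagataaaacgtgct
The windows are chr4:136886151-136886450 (minus strand) for *C1qb*, chr4:136892865-136893164 (minus strand) for *C1qc*, chr2:14229164-14229463 (plus strand) for *Mrc1* and chr5:90772185-90772484 (plus strand) for *Pf4*. The letters begin 30 bases before the start in *C1qb*, 193 in *C1qc* and 8 in *Pf4*. In *Mrc1* they begin 180, 167 and 35 bases before it. The start meant is the RefSeq start of each window. The gene spans given above need not begin there, and that of *C1qc* does not. The window of *Fcer1g* holds 0 matches. GAGGAA is found in 28.3% of all 32851 promoter windows of this length, so a match is a description and not a binding site. *Spi1*, which encodes PU.1, was present at 450.3 CPM (UMIs of a gene per 1000000 UMIs of the cells summed) in the C1q-positive macrophages of the control library and at 412.2 CPM in those of the *Cnot3*-cKO library.

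The selection caught more than macrophages. Of the 42 control members, 29 held at least 10 UMIs of *C1qa*, *C1qb* and *C1qc*, and of the 60 *Cnot3*-cKO members, 51 did. This limit was set after the values were seen, but it falls in a gap. C1q UMIs of the 80 C1q-positive cells ran from 106 to 385 in control (median 251) and from 18 to 378 in *Cnot3*-cKO (median 207), while those of the other members were at most 0 and 6. The plot of C1q against adaptor RNA shows these groups apart. C1q-positive cells made up 69.0% of control members (52.9 to 82.4%) and 85% of *Cnot3*-cKO members (73.4 to 92.9%).

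**Figure D1:**
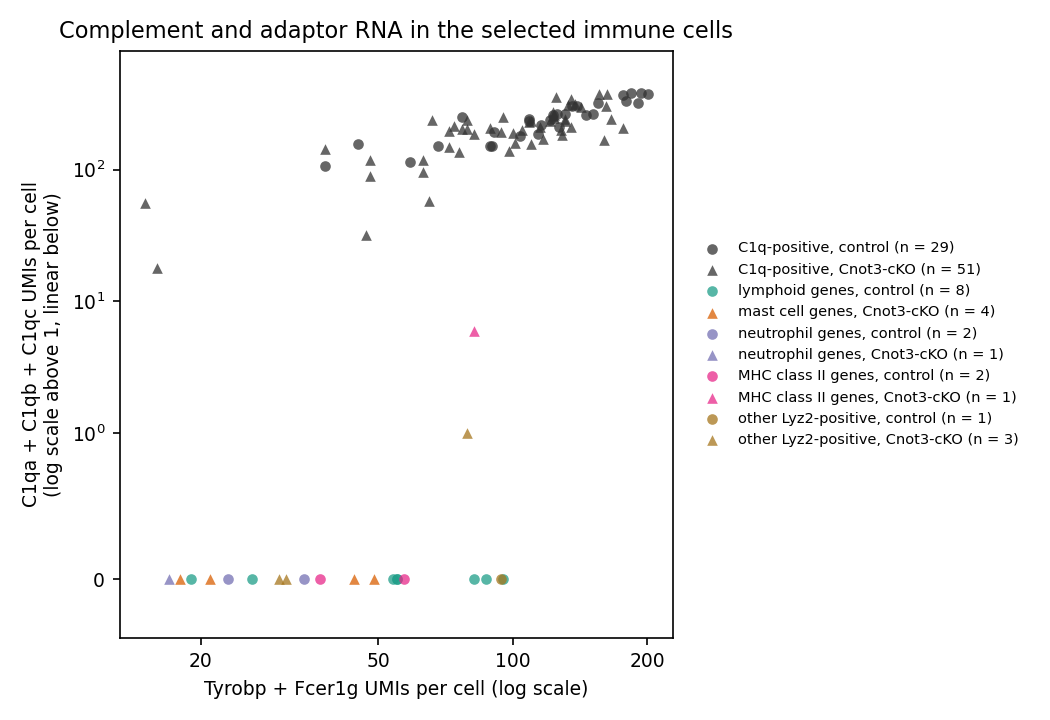
Each point is 1 of the 102 selected cells, with *Tyrobp* and *Fcer1g* UMIs on the horizontal axis (log scale) and *C1qa*, *C1qb* and *C1qc* UMIs on the vertical axis (log scale above 1, linear below), circles for control and triangles for *Cnot3*-cKO, coloured by the genes that lead each cell. The 80 C1q-positive cells lie at 18 UMIs or more of C1q, and the other 22 cells at 6 or fewer.

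The remaining 13 control and 9 *Cnot3*-cKO cells were passed by *Tyrobp* and *Fcer1g*, signalling adaptors that many immune cells share. In control, 8 of them carried lymphoid genes. Each of these held 12 to 54 UMIs of *Cd3g*, a chain of the T cell receptor complex, 19 to 36 UMIs of the cytotoxic granule gene *Nkg7* and 2 to 47 UMIs of *Trdc*, the constant region of the delta chain. *Lyz2* and *Csf1r* were at 0 UMIs in all 8. No *Cnot3*-cKO member reached 5 UMIs of the lymphoid list. In *Cnot3*-cKO, 4 members carried mast cell genes, with 57 to 99 UMIs of *Cpa3* and 149 to 323 UMIs of *Cma1*, both proteases of mast cell granules, and *Lyz2* at 0 UMIs. No control member reached 5 UMIs of the mast cell list. The kinds that follow were in both libraries.

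Cells dominated by the neutrophil genes *S100a8* and *S100a9* numbered 2 in control, with 517 and 343 UMIs of the pair, and 1 in *Cnot3*-cKO, with 1739. Cells with MHC class II RNA (*H2-Aa*, *H2-Ab1* and *H2-Eb1*) but little or no C1q numbered 2 in control, at 521 and 289 UMIs, and 1 in *Cnot3*-cKO, at 219. These 3 held 5 to 29 UMIs of *Ccr2*, the chemokine receptor of monocytes. The last 1 control and 3 *Cnot3*-cKO cells held 40 to 486 UMIs of *Lyz2*, the phagocyte lysozyme. In each library 1 of them also held *Ccr2* (59 and 26 UMIs) and *Ly6c2* (18 and 25 UMIs), which mark classical monocytes, and the other 2 *Cnot3*-cKO cells held 6 UMIs each of the Fc receptor gene *Fcgr4* and 0 of *Ccr2*. The limits behind these groups (5 UMIs for the mast cell and lymphoid lists, 50 for neutrophil and MHC class II genes) were settled after the values were seen. The neutrophil-gene cells of control had 3212 and 3259 UMIs in all, against a median of 17014.5 over control members, and get no cell type name. The heat map of marker RNA shows these groups by the genes that defined them and by further markers.

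**Figure D2:**
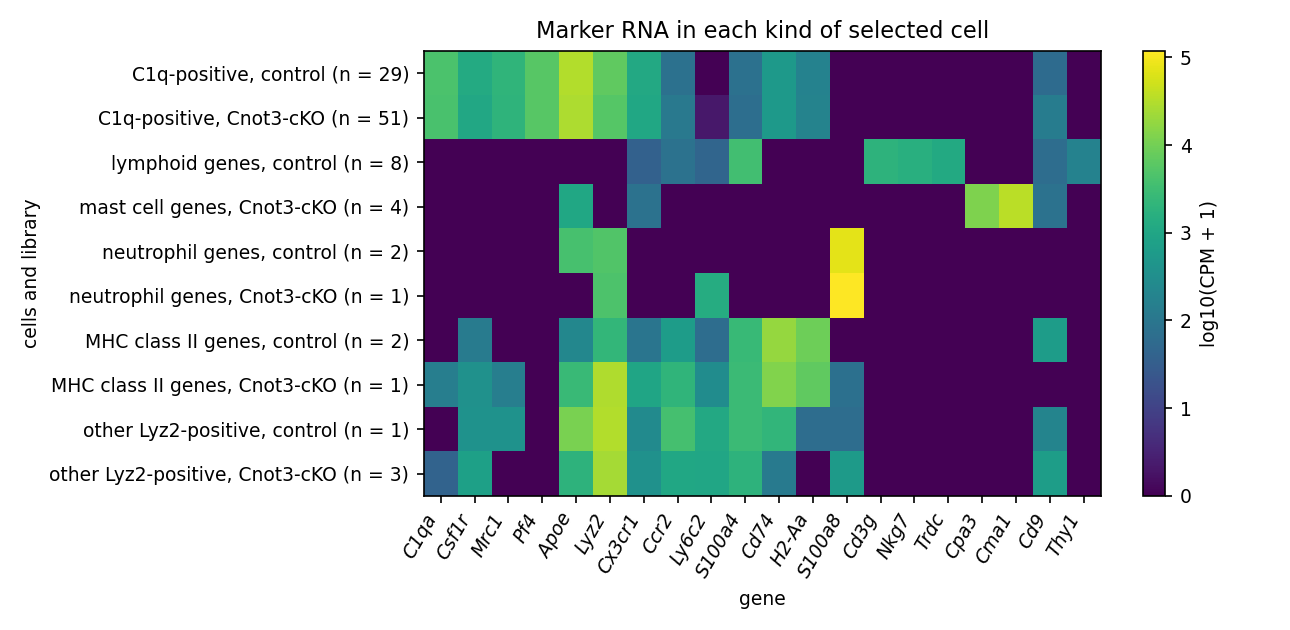
Rows are the kinds of selected cell in each library with their number of cells, columns are genes, and the colour is log10 of summed CPM plus 1. *C1qa*, *Mrc1*, *Pf4* and *Apoe* are bright in the C1q-positive rows, whereas *Cd3g*, *Nkg7* and *Trdc* are bright in the row of 8 control cells and *Cpa3* and *Cma1* in the row of 4 *Cnot3*-cKO cells.

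Among the C1q-positive cells, markers of mast and lymphoid cells were nearly absent and those of monocytes were held by a few cells. The mast cell list summed to 0 UMIs in both libraries, *S100a8* was at 0 UMIs and the lymphoid list had 1 UMI in each library. The neutrophil list summed to 19 UMIs in each library and the monocyte list, which includes *Ccr2*, to 93 and 164 UMIs, with 5 or more in 4 and 6 cells. Levels of germ and Sertoli genes were limited by the rule itself and are a description. The Leydig list summed to 5.54 and 1.14 CPM (control, then *Cnot3*-cKO, here and below), against 7.39 and 13.1 CPM over all other barcodes, and the germ cell list to 33.2 and 20.4 CPM, against 1248 and 586.3 CPM over all other barcodes. The Sertoli list summed to 559.2 and 817.5 CPM. Over 50 UMIs of the Sertoli rule genes were held by 3 control members (126 to 145 UMIs) and 3 *Cnot3*-cKO members (70 to 149 UMIs), all of at least 27582 UMIs in total, and the other members held at most 4 and 10. Scrublet called 3 members of each library doublets, 0 and 2 of them C1q-positive.

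Depth was close between the libraries. Members held a median of 17014.5 UMIs in control (3212 to 52351) and 15966.5 in *Cnot3*-cKO (3623 to 34169), with medians of 3960.5 and 3975 genes and 5.05% and 5.22% mitochondrial UMIs. The members shared 0 barcode sequences between libraries, and all barcodes over the depth limit shared 22. Of barcodes with at least 15 UMIs of the immune genes, 51 in control and 66 in *Cnot3*-cKO, the stromal limit left out 3 and 4, the Sertoli limit 1 and 2 and the germ cell limit 5 and 0. The members nearest the immune limit held 19, 23 and 26 UMIs in control and 17, 18 and 21 in *Cnot3*-cKO, and the barcodes nearest outside it 12, 12 and 12 in control and 2, 1 and 1 in *Cnot3*-cKO.

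The C1q-positive cells carried RNA of resident-type macrophages in both libraries. In control they held 4352 CPM of *C1qa*, 5085 of *C1qb* and 3841 of *C1qc*, and in *Cnot3*-cKO 4123, 4437 and 3334. *Csf1r*, the receptor for the growth factors CSF1 and IL34, was at 1288 and 1116 CPM, and *Adgre1*, which encodes the F4/80 antigen, at 653.3 and 543.9 CPM. *Mrc1* was at 2082 and 1973 CPM and *Pf4* at 5801 and 5761 CPM. *Mrc1* had at least 1 UMI in all 29 control cells and in 50 of 51 *Cnot3*-cKO cells, and its level per 10000 UMIs of a cell ran from 0.956 to 37.2 in control (median 19.1) and from 0 to 49.3 in *Cnot3*-cKO (median 19.8). The ranges of the libraries overlap almost fully. In free RNA these genes were low, and *C1qa* was at 19.6 and 19.3 CPM in barcodes of at most 100 UMIs and at 2.88 and 2.30 CPM in all other barcodes.

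The 25 genes with the highest ratio of members to other barcodes in the lower library included 4 of the rule's own genes. Over all genes with at least 100 member UMIs, 497 of 2648 (18.8%) were at least 4-fold higher in members in both libraries. Leading the list were *Ccl24*, a chemokine of eosinophils, at 2038-fold in the lower library, the purine receptor *P2ry13* at 2018-fold, the monocyte chemokine *Ccl7* at 1669-fold, the lectin receptor gene *Clec4a3* at 1596-fold and *Adgre1* at 1573-fold. *Fcrls*, an Fc receptor-like gene known from microglia, followed at 1521-fold and the surface protein gene *Ms4a7* at 1506-fold. The list also held *Pf4*, *Gpr34*, *Tyrobp*, *Lyz2*, *Ccl2*, *Ccl3*, *Ccl12*, *Fcgr1* and *Csf1r*, all above 1000-fold. *S100a8* and *Gm5483* stood in it too, but both were at 0 CPM in the C1q-positive cells. These folds describe the selected cells and were not tested.

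**Figure D3:**
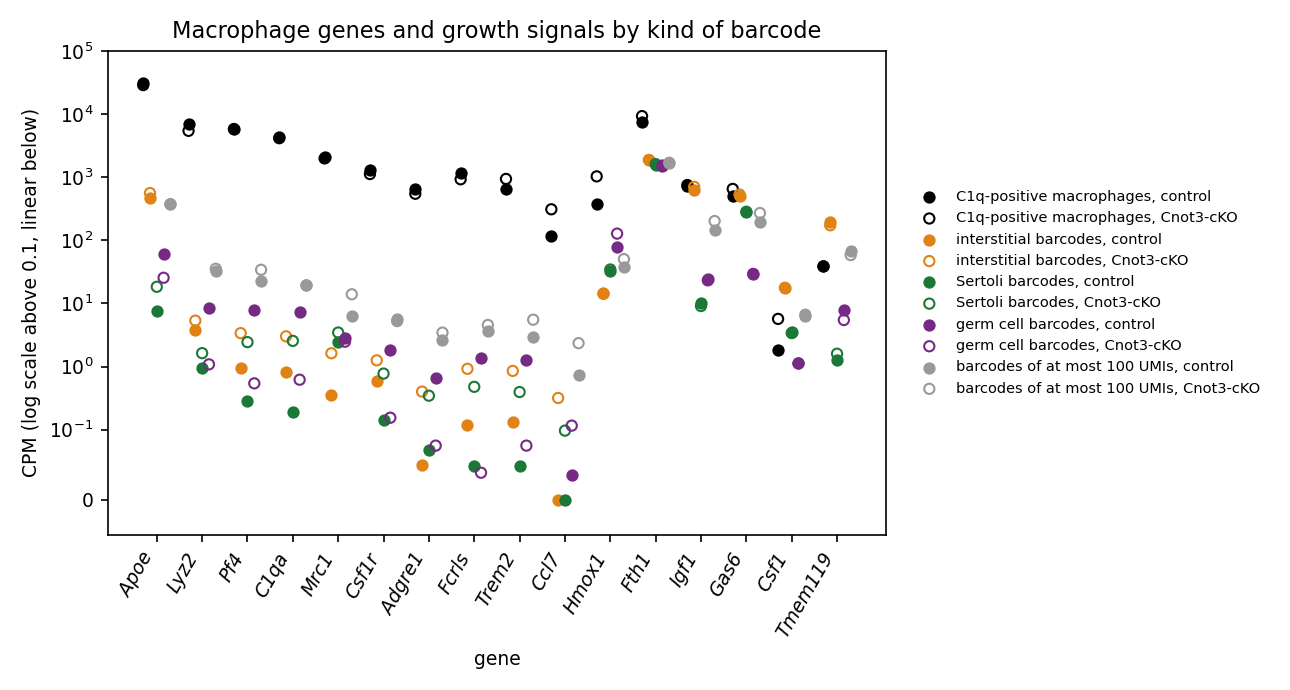
Summed CPM (log scale above 0.1, linear below) of 16 genes in C1q-positive macrophages, interstitial, Sertoli and germ cell barcodes and barcodes of at most 100 UMIs, filled for control and open for *Cnot3*-cKO. Macrophage genes such as *C1qa* (4352 and 4123 CPM) stand far above every other kind of barcode, *Igf1* and *Gas6* are at similar levels in interstitial barcodes, and *Csf1* and *Tmem119* are higher there.

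Genes of the perivascular, scavenging type of tissue macrophage spanned a wide range of levels. *F13a1*, the coagulation factor XIII subunit that resident macrophages make, was at 832.4 and 947.0 CPM, and *Stab1*, a scavenger receptor, at 1189 and 1149 CPM. *Folr2*, a folate receptor, was at 203.0 and 290.7 CPM, and 11 of 29 control and 22 of 51 *Cnot3*-cKO cells had a UMI of it after each cell was thinned to 3000 UMIs (37.9%, 20.7 to 57.7%, and 43.1%, 29.4 to 57.8%). *Timd4*, which binds phosphatidylserine on dying cells, had 31 and 80 UMIs. *Vsig4* and *Cd163*, markers of resident macrophages elsewhere, were scarce, with *Cd163* at 20 UMIs in 4 control cells and 10 UMIs in 2 *Cnot3*-cKO cells. *Lyve1*, a hyaluronan receptor of vessel-associated macrophages, had 2 UMIs in 1 control cell and 57 UMIs in 12 *Cnot3*-cKO cells, of which 28 UMIs lay in 1 cell that also held 9 of the 10 *Cd163* UMIs and 26 UMIs of *Folr2*.

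A small set of C1q-positive cells carried *Ccr2* and less of the resident genes. *Ccr2* reached 5 UMIs in 3 control cells (6 to 23 UMIs) and 5 *Cnot3*-cKO cells (8 to 26 UMIs), while the other cells held at most 0 and 1. *Mrc1* was at 793.7 CPM in the 3 control cells against 2175 CPM in the other 26, and at 348.0 CPM in the 5 *Cnot3*-cKO cells against 2081 CPM in the other 46. *Pf4* was at 2901 against 6010 CPM in control and at 512.9 against 6108 CPM in *Cnot3*-cKO. *Folr2* was at 0 UMIs in the *Ccr2* cells of both libraries. The *C1qa* level did not part them, at 4406 against 4348 CPM in control and 4067 against 4127 CPM in *Cnot3*-cKO. *Maf*, a transcription factor of resident macrophages, was at 465.2 against 1445 CPM and at 421.3 against 1626 CPM. *Ly6c2* had 0 and 1 UMIs in the *Ccr2* cells. The limit of 5 UMIs was chosen after the values were seen and the difference is a description.

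MHC class II RNA also sat in few C1q-positive cells. *Cd74*, the invariant chain that guides class II molecules, summed to 300 control and 484 *Cnot3*-cKO UMIs, and 3 cells held 75.7% and 90.7% of them. *H2-Aa*, *H2-Ab1* and *H2-Eb1* together had 201 UMIs in control, 174 of them in 1 cell, and 493 in *Cnot3*-cKO, 402 and 71 of them in 2 cells. These 3 cells kept C1q, at 179 UMIs in the control cell and 234 and 354 in the *Cnot3*-cKO cells. In the thinned cells, 2 of 29 control cells (6.90%, 0.846 to 22.8%) and 2 of 51 *Cnot3*-cKO cells (3.92%, 0.479 to 13.5%) held 3 or more class II UMIs. C1q-positive cells high in class II RNA were thus single cells in these libraries.

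Cell-to-cell variation was measured as the variance over the mean of the thinned counts, which is 1 for counting noise alone and had a median of 0.944 over 1898 genes in C1q-positive cells (the lower of both libraries). *Cd74* varied most, at 22.7 in control and 51.7 in *Cnot3*-cKO, with *H2-Aa* at 19.9 and 18.2 and the monocyte chemokine *Ccl12* at 16.2 and 14.6. *Apoe*, the lipid carrier of macrophages, was at 8.35 and 19.8, and *Hmox1*, heme oxygenase, at 6.82 and 10.5. *Ccr2* was at 4.63 and 5.17 and *Lpl*, lipoprotein lipase, at 5.04 and 4.57. The top 20 also held *Lyz2*, *Ftl1*, *Fth1* and *Pf4*. Over all members the list was led by *S100a8* and *S100a9*, the genes of the neutrophil-gene cells.

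Of the genes of uptake, lipid and iron handling, *Apoe*, *Ctsb*, *Lgmn*, *Ftl1* and *Fth1* had a UMI in every C1q-positive cell of both libraries, and *Mertk* in 23 of 29 and 35 of 51 cells. *Lrp1*, a scavenger and lipoprotein receptor, was at 387.6 and 375.8 CPM, *Mertk*, which binds apoptotic cells through GAS6, at 92.3 and 85.2 CPM, and *Gas6* itself at 505.7 and 649.5 CPM. *Apoe* was at 31342 and 28593 CPM. Lysosomal proteases followed, with *Ctsb* at 2492 and 2357, *Ctsd* at 1403 and 1668 and *Lgmn* at 2390 and 2262 CPM. *Ftl1* and *Fth1*, the ferritin chains that store iron, were at 11007 and 13082 and at 7329 and 9225 CPM, and *Slc40a1*, which encodes the iron exporter ferroportin, at 538.9 and 440.6 CPM. None of these named genes differed 2-fold between the libraries, where 2.35% of all genes were higher in *Cnot3*-cKO and 0.587% lower. *Hmox1*, and *Marco* of the uptake list, were past 2-fold and are described below.

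RNA of growth factors that link macrophages and neighbouring cells was split between them. *Csf1*, the ligand of CSF1R, had 1 UMI in control and 5 UMIs in *Cnot3*-cKO macrophages, against 17.2 and 17.7 CPM in the interstitial barcodes (at least 0.5% stromal UMIs). *Il34*, its other ligand, had 0 UMIs in the macrophages of both libraries and 0.350 and 0.284 CPM in interstitial barcodes. The receptor *Cx3cr1* was at 1152 and 1041 CPM in macrophages and its ligand *Cx3cl1* at 40.5 and 37.3 CPM in interstitial barcodes. *Igf1* was present in both, at 734.5 and 748.3 CPM in macrophages and 613.0 and 700.2 CPM in interstitial barcodes, and *Tgfb1* was at 287.9 and 283.9 CPM in macrophages. *Il6*, *Il1a* and *Vegfa* were at 0 UMIs in the macrophages of both libraries, and *Il1b*, *Il10* and *Tnf* at 0, 0 and 1 UMIs in control and 14, 9 and 7 in *Cnot3*-cKO.

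Several genes known from microglia, the macrophages of the brain, were in testis macrophages as well. *Fcrls* was at 1163 and 922.0 CPM, *Gpr34* at 395.0 and 237.3 CPM and *P2ry12* at 186.4 and 176.0 CPM. *Tmem119* was at only 38.8 and 38.6 CPM, below the 192.8 and 172.3 CPM of the interstitial barcodes. *Sall1*, a defining regulator of microglia, had 0 UMIs. *Thy1*, a protein of the sort, had 0 UMIs in C1q-positive cells of both libraries (0 of 29 and 0 of 51 cells). The upper limit of the share with a UMI was 11.9% and 6.98%, or 10.3% and 5.88% if 0 allows up to 3 cells. *Cd9* was at 59.1 and 132.9 CPM. Of the 24 *Thy1* UMIs of control members, all lay in the lymphoid-gene cells.

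Between the genotypes, the share of members among barcodes was 0.471% in control (0.340 to 0.636%) and 0.592% in *Cnot3*-cKO (0.452 to 0.762%). That of C1q-positive cells was 0.325% (0.218 to 0.467%) and 0.503% (0.375 to 0.661%). Both pairs of intervals overlap. Barcodes with 10 or more *Ddx4* and *Dazl* UMIs numbered 1334 of 8915 in control and 559 of 10131 in *Cnot3*-cKO. The part of the sort in these shares was not tested. *Cnot3* itself, on chr7:3645268-3661109, had 31 UMIs in control members (42.3 CPM) and 38 in *Cnot3*-cKO members (40.0 CPM), a log2 ratio of -0.08 (-0.80 to 0.65), but 1.36 when cells were thinned before summing. In C1q-positive cells it was 19 and 35 UMIs (0.18, -0.66 to 1.07). Germ cell barcodes held 71.2 and 39.4 CPM. Of the CCR4-NOT subunits, *Cnot3* included, 0 of the 7 measured in C1q-positive cells were past 2-fold in either direction, with a median of 0.18. Over all genes of these cells 2.35% were at least 2-fold higher and 0.587% lower, so a count of 0 is near that background.

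Over all members, 85 of 4736 genes with at least 50 UMIs (1.79%) were at least 2-fold higher in *Cnot3*-cKO and 78 (1.65%) at least 2-fold lower. These counts were 35 and 15 in thinned cells and 28 and 16 with a minimum of 200 UMIs per gene, and 139 genes were higher with every cell weighted equally. The extremes of both lists were mostly genes of the other immune cells. The 10 genes with the highest lower limits included the mast cell proteases *Cma1*, *Tpsb2*, *Mcpt4*, *Cpa3* and *Mcpt2*, at 865, 526, 475, 310 and 150 UMIs in *Cnot3*-cKO and 0 in control. The 10 with the lowest upper limits were the lymphoid genes *Xcl1*, *Cd3g*, *Nkg7*, *Trbc2*, *Trdc*, *Ctsw*, *Cd7*, *Klrd1*, *Il2rb* and *Trbc1*, at 84 to 345 control UMIs and 0 in *Cnot3*-cKO. The antimicrobial gene *Camp*, the granule protease gene *Ctsg* and the neutrophil gene *Retnlg* were at 0 UMIs in control as well. The comparison of macrophages therefore uses the C1q-positive cells, where 96 of 4088 genes (2.35%) were at least 2-fold higher in *Cnot3*-cKO and 24 (0.587%) at least 2-fold lower, with a median log2 ratio of 0.05.

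None of the 16 macrophage identity genes passed 2-fold in C1q-positive cells in either direction, where 2.35% and 0.587% of all genes did, and their median log2 ratio was -0.18. *Csf1r* differed by -0.21 (-0.35 to -0.06), *Mrc1* by -0.08 (-0.19 to 0.03) and *Pf4* by -0.01 (-0.07 to 0.05). *Lyz2* was 7011 CPM in control and 5395 in *Cnot3*-cKO (-0.38, -0.44 to -0.32) and *Ms4a7* 1314 and 851.6 CPM (-0.63, -0.78 to -0.48). The 8 measured complement genes, 4 Fc receptor genes, 14 lysosome and lipid genes, 8 macrophage transcription factors and 5 microglia genes also held 0 members past 2-fold. Counts of 0 are near that background, and these lists include genes of the rule. *C1qa*, a gene of the rule, was at -0.08 (-0.15 to -0.0026). Over all members *C1qa* and *Pf4* were on the other side of 0, at 0.25 and 0.32, where the 13 control cells without C1q are in the sum.

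Immediate early genes, transcription factors and their feedback regulators that cells switch on within minutes of a stimulus, were mostly higher in the *Cnot3*-cKO macrophages. Of the 12 in the list, 10 had 50 UMIs and 9 of these were at least 2-fold higher, with 0 lower and a median log2 ratio of 1.69, where 2.35% of all genes were higher. *Fos* per 10000 UMIs ran from 0 to 11.3 in control cells (median 2.95) and from 0 to 55.0 in *Cnot3*-cKO cells (median 17.1), so that the ranges overlap at the low end. Its summed level was 448.5 and 1660 CPM (1.89, 1.69 to 2.09). *Jun* was at 559.2 and 1567 CPM (1.49, 1.31 to 1.67), *Fosb* at 44.3 and 444.0 CPM (3.32, 2.73 to 3.99) and *Egr1* at 66.4 and 352.0 CPM (2.40, 1.91 to 2.95). *Dusp1*, a phosphatase that ends MAP kinase signals, was at 48.0 and 314.5 CPM (2.71, 2.13 to 3.35), and *Atf3*, a stress-induced factor, at 4 and 78 UMIs (3.58, 2.17 to 5.50). *Nfkbia*, the inhibitor of NF-kB, was the exception at 97.8 and 93.1 CPM.

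In interstitial barcodes of these libraries the list's median log2 ratio was 0.93 over 12 genes, in Sertoli barcodes 0.25 and in germ cell barcodes 0.59. Over the 10 genes measured in macrophages these medians were 1.03, 0.28 and 0.66, against 1.69 in macrophages. In interstitial and Sertoli barcodes *Fos* was 2.29 and 0.74, *Zfp36*, which destabilises cytokine mRNAs, 2.02 and 0.46 against 1.37 in macrophages, and *Jun* 0.85 and -0.18. *Atf3* was 0.20 and -0.11 there. *Klf6*, which was not in the list and was named after its value was seen, was at 311.9 and 730.1 CPM in macrophages (1.23, 0.98 to 1.48) and 0.14 in interstitial barcodes.

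**Figure D4:**
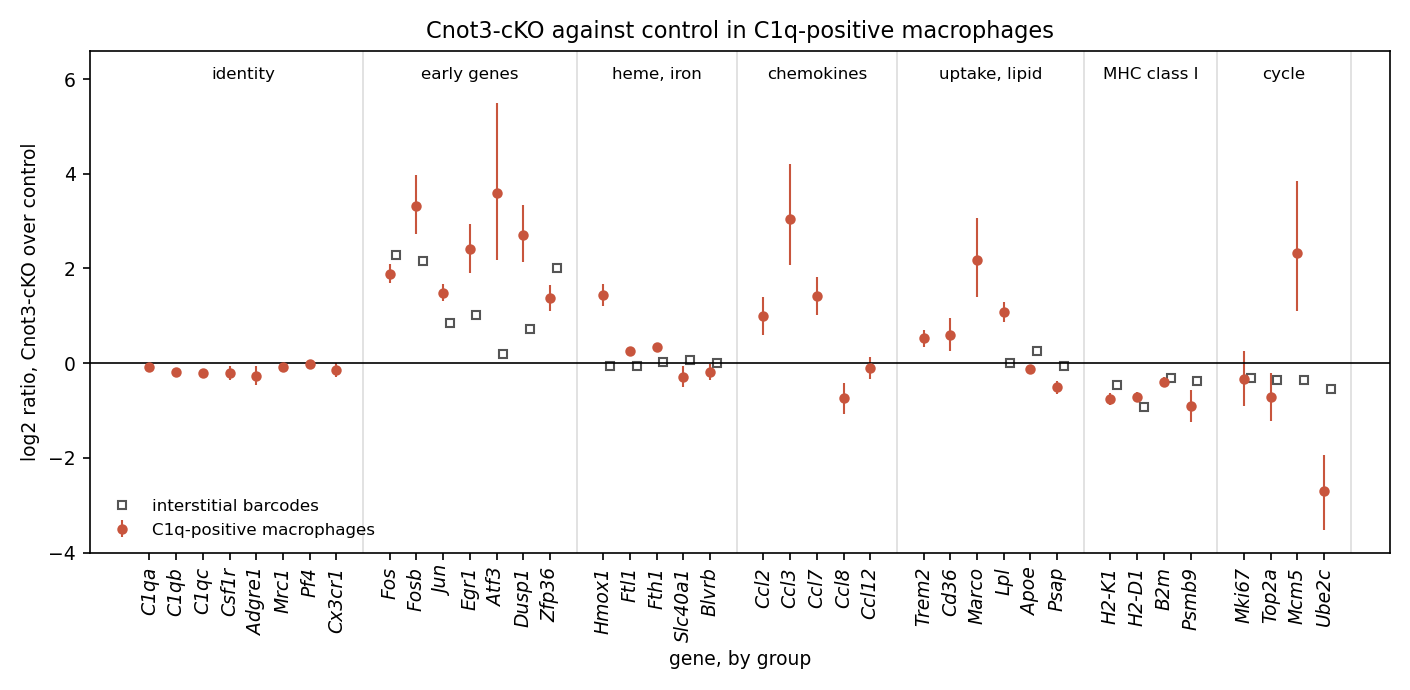
Log2 ratio of *Cnot3*-cKO over control summed CPM in C1q-positive macrophages for genes in groups, with bars for the 95% counting interval and open squares for the ratio in interstitial barcodes where shown. Identity genes lie near 0, the early genes plotted between 1.37 (*Zfp36*) and 3.58 (*Atf3*), *Hmox1* at 1.44, and *H2-K1* and *H2-D1* at -0.76 and -0.72.

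*Hmox1*, which breaks down heme to iron, biliverdin and carbon monoxide (chr8:75093621-75100589), had its high values in a minority of cells. It summed to 205 control and 903 *Cnot3*-cKO UMIs in C1q-positive cells, 378.3 and 1025 CPM (1.44, 1.22 to 1.66). Per 10000 UMIs its median was 2.04 in control and 2.09 in *Cnot3*-cKO, while the highest cells stood at 41.6 and 59.98. The medians lay close together and the upper tail was longer in *Cnot3*-cKO. After thinning, 1 of 29 control cells held 3 or more *Hmox1* UMIs (3.45%, 0.0873 to 17.8%) and 9 of 51 *Cnot3*-cKO cells did (17.6%, 8.40 to 30.9%). These intervals overlap. In interstitial and Sertoli barcodes the log2 ratios were -0.05 and 0.05.

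The 9 *Hmox1*-high cells of *Cnot3*-cKO, chosen on that gene, also held more ferritin, *Gclm*, *Txnrd1* and *Lpl* RNA than the other 42. *Fth1* was at 18086 against 6920 CPM and *Ftl1* at 22189 against 10713 CPM. *Gclm*, a subunit of the enzyme that starts glutathione synthesis, was at 286.0 against 52.9 CPM, and *Txnrd1*, thioredoxin reductase, at 148.5 against 34.3 CPM. Both were picked by hand from outside the gene lists. *Lpl* was at 1859 against 615.3 CPM. *Mrc1* and *C1qa* were at similar levels in both sets, 1925 against 1986 and 4026 against 4148 CPM, and *Ccr2* was at 0 UMIs in the 9. The single control cell with 3 or more had 60 *Hmox1* UMIs, 14624 CPM of *Fth1*, 18575 CPM of *Ftl1*, 1 UMI of *Gclm* and 0 UMIs of *Txnrd1* and *Lpl*. The plot of single macrophages shows the tails of *Hmox1* and *Fth1*.

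**Figure D5:**
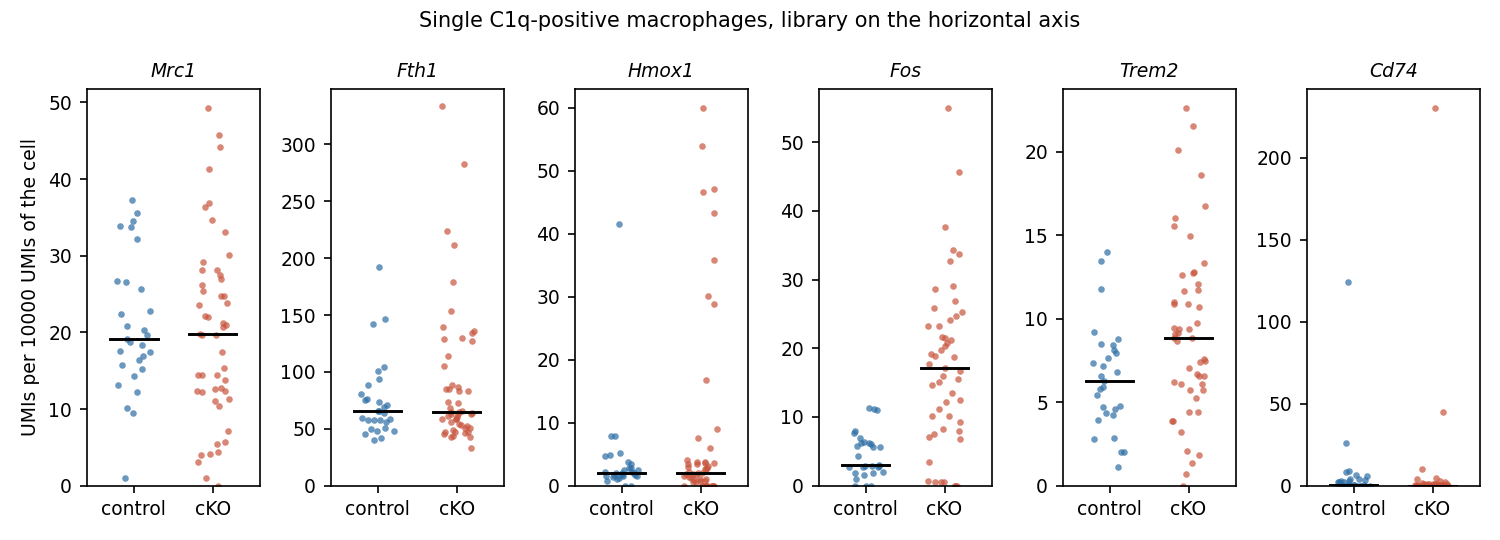
Each point is 1 C1q-positive macrophage, 29 control and 51 *Cnot3*-cKO, with UMIs of the named gene per 10000 UMIs of the cell on the vertical axis (each panel has its own scale) and black lines at the medians. The *Hmox1* medians are 2.04 and 2.09 with a longer upper tail in *Cnot3*-cKO, the *Fos* medians are 2.95 and 17.1, and *Cd74* is held by single cells.

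Over the iron and heme list, *Hmox1* was the only one of 7 measured genes past 2-fold, and the median was 0.25. Of all genes in C1q-positive cells, 2.35% were at least 2-fold higher and 0.587% lower. Ferritin differed by less, with *Ftl1* at 0.25 (0.20 to 0.29) and *Fth1* at 0.33 (0.28 to 0.39), and *Slc40a1* was at -0.29 (-0.51 to -0.07). Apoptotic cell uptake genes, beside the same shares over all genes, had 1 of 11 past 2-fold and a median of 0.36. That gene was *Marco*, a scavenger receptor, at 15 UMIs in 8 control cells and 110 UMIs in 13 *Cnot3*-cKO cells (2.17, 1.39 to 3.06), with 58.2% of the *Cnot3*-cKO UMIs in 3 cells. *Trem2*, a lipid-sensing receptor, was at 647.8 and 933.4 CPM (0.53, 0.34 to 0.71) and its range per 10000 UMIs was 1.09 to 14.01 in control and 0 to 22.6 in *Cnot3*-cKO. *Cd36*, a fatty acid and scavenger receptor, was at 179.0 and 270.2 CPM (0.59, 0.25 to 0.95). *Lpl* was at 413.4 and 872.0 CPM (1.08, 0.86 to 1.30), with 22 of 29 and 43 of 51 cells holding a UMI.

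Chemokine genes differed among themselves. Of 11 measured, 3 were at least 2-fold higher and 0 lower in *Cnot3*-cKO, and the median was -0.06. Over all genes 2.35% were at least 2-fold higher and 0.587% lower. *Ccl3*, which attracts monocytes and lymphocytes, had 9 UMIs in 4 control cells and 121 UMIs in 17 *Cnot3*-cKO cells (3.05, 2.08 to 4.21). *Ccl7* was at 116.3 and 308.8 CPM (1.41, 1.009 to 1.83) and its neighbour *Ccl2*, also a ligand of CCR2, at 131.0 and 260.0 CPM (0.99, 0.60 to 1.39). *Cxcl2*, a neutrophil attractant, had 0 UMIs in control and 58 in only 2 *Cnot3*-cKO cells. *Ccl8* was at 297.1 and 178.3 CPM (-0.74, -1.06 to -0.41), held by 21 control cells but by 7 *Cnot3*-cKO cells, 3 of which had 96.2% of the UMIs. *Pf4*, *Ccl12* and *Ccl24* differed by -0.01, -0.11 and -0.38. *Cxcl9* and the lectin gene *Cd209f* were among the 10 genes with the highest lower limits, with 0 UMIs in control and 75 and 130 in *Cnot3*-cKO, but 98.7% and 94.6% of these lay in 3 cells.

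Among the 10 genes with the lowest upper limits were 3 of MHC class I presentation, *H2-K1*, *H2-D1* and *Psmb9*. *H2-K1*, a class I heavy chain, ran from 9.56 to 36.0 UMIs per 10000 in control (median 21.7) and from 0 to 35.1 in *Cnot3*-cKO (median 12.1), so the ranges overlap. It summed to 2113 and 1251 CPM (-0.76, -0.88 to -0.64), and *H2-D1* to 2813 and 1709 CPM (-0.72, -0.82 to -0.62). *B2m*, their shared light chain, which was named after its value was seen, was at 2744 and 2094 CPM (-0.39, -0.49 to -0.29), and *Psmb9*, a subunit of the immunoproteasome, at 297.1 and 159.0 CPM (-0.90, -1.24 to -0.57). Near-identical class I genes may share reads, and the split between them is uncertain. The ratios of *H2-K1*, *H2-D1* and *B2m* were -0.47, -0.93 and -0.31 in interstitial barcodes and -1.19, -1.92 and -1.15 in Sertoli barcodes.

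*Iigp1*, an interferon-induced GTPase, was at 347.0 and 176.0 CPM (-0.98, -1.29 to -0.66), *Ifi27l2a* at 396.8 and 205.5 CPM (-0.95, -1.24 to -0.66) and *Parp14* at 138.4 and 64.7 CPM (-1.10, -1.62 to -0.58). The interferon list did not pass 2-fold in any of its 5 measured genes, all of which lay below 0 with a median of -0.36. Of all 4088 genes measured in C1q-positive cells, 1859 lay below 0 and the median was 0.05. At least 2-fold higher were 2.35% and lower 0.587%, so 0 of 5 is near that background. *Isg15* was at 40 and 41 UMIs. The list's level per 10000 UMIs ran from 4.39 to 28.3 in control cells and from 0 to 49.9 in *Cnot3*-cKO cells. MHC class II genes had a median of 0.01 over 6 genes in C1q-positive cells with 1 higher, *H2-Ab1*, 98.5% of whose *Cnot3*-cKO UMIs lay in 3 cells. Over all members the median was -0.78, and *Cd74* was at 1278 and 705.4 CPM (-0.86, -1.003 to -0.71), and 604 of the 937 control UMIs were in the 2 class II cells without C1q.

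Macrophages with many UMIs of cell cycle genes were few. The cell cycle list holds replication and mitosis genes. It reached 30 UMIs in 3 control cells (41 to 240 UMIs) and 7 *Cnot3*-cKO cells (31 to 113 UMIs). All of these held at least 202 C1q UMIs. The control cell at 240 held 52351 UMIs in all, and the list summed to 445 UMIs over the 29 control cells. That cell was also among the 3 control members with 126 to 145 UMIs of the Sertoli rule genes. Scrublet called 0 C1q-positive control cells doublets. Whether its cycle RNA came from a macrophage was not tested, and the *Cnot3*-cKO cells were not compared with the Sertoli values. In thinned cells, 3 of 29 (10.3%, 2.19 to 27.4%) and 10 of 51 (19.6%, 9.82 to 33.1%) held 3 or more. *Mki67* was at 86.7 and 69.3 CPM (-0.32, -0.90 to 0.26), and the control cell at 240 held 31 of the 47 control UMIs. Of 10 measured genes, 2 replication genes were higher, *Mcm5* with 6 and 49 UMIs (2.33, 1.10 to 3.84) and *Mcm6* with 14 and 67 (1.56, 0.71 to 2.50), and 2 mitosis genes lower, *Ube2c* with 72 and 18 UMIs (-2.70, -3.53 to -1.94) and *Cenpf* with 63 and 39 (-1.39, -2.01 to -0.79). Over all genes of C1q-positive cells, 2.35% were at least 2-fold higher and 0.587% lower. In control, 86.1% of the *Ube2c* UMIs lay in 3 cells. Over all members the list's median was -0.95 against 0.03 in C1q-positive cells, and the 8 lymphoid-gene cells of control held 69 of the 121 *Mki67* UMIs of that library's members.

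Of the 10 genes with the lowest upper limits, 2 remain. *Apoc1*, an apolipoprotein, was at 71 and 32 UMIs (-1.85, -2.50 to -1.23), with 63.4% of the control UMIs in 3 cells, and *Ramp1*, a subunit of the receptor for calcitonin gene-related peptide, at 66 and 47 UMIs (-1.19, -1.76 to -0.63). The last of the 10 genes with the highest lower limits is *RP24-64D24.4*, at 14 and 180 UMIs (2.98, 2.20 to 3.88).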

How the data were processed

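Testis cells of 4 samples, 2 per genotype, were measured by 10x Genomics 3′ single-cell RNA sequencing. Raw UMI counts were deposited, which the authors obtained with Cell Ranger (3.0.1) on mm10, with settings not given in the sources used here. Each genotype has 1 matrix of 30828 genes and 6794880 barcodes, with 181550221 UMIs in control and 168770743 in *Cnot3*-cKO, and 0 columns of other samples. The study's methods name runs on 2 sequencers, which could not be separated in the matrices.

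UMIs were summed over a set of cells and divided by that set's total in the library to give CPM. The totals were 733182 and 949856 UMIs over all members and 541833 and 880692 over C1q-positive cells. Log2 ratios have exact conditional intervals, CPM exact Poisson and shares exact Clopper-Pearson intervals, at 95%. A share of 0 was read as allowing up to 3 cells. A gene was compared when both libraries together held at least 50 of its UMIs, and a 2-fold ratio was used as the limit for counts. Cells were thinned to 3000 UMIs where shares were compared. Members came from the rule given above, and members and 32 gene lists were chosen with earlier results of these data known. Named genes were the 10 with the highest lower and the 10 with the lowest upper interval limit in the genotype ratio, the 25 with the highest ratio to other barcodes, the 20 with the highest variance over mean, and members of the lists. *Gclm*, *Txnrd1*, *Dnmt1*, *Klf6* and *B2m* were in none of these and were added by hand. Barcodes were taken as Sertoli or interstitial at 0.5% of UMIs of the rule's genes, and as germ cell at 10 UMIs. Scrublet in scanpy (1.11.5) marked 6.20% and 4.41% of barcodes as doublets, and these were kept in the main values. Python (3.11.15), NumPy (2.4.6), SciPy (1.17.1) and pandas (2.3.3) were used, and the ratio step was tested on simulated data. Positions, matched for 343 of 343 genes looked up, are those of GRCm38. The 21 alternatives varied depth, limits, scaling, thinning and filters. The study's own cell calls were not used here.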

Additional observations from a re-analysis of the deposited data

Results flagged for a closer look

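Barcodes of at least 1000 but under 3000 UMIs were outside the selection. They passed every other limit in 1 control and 6 *Cnot3*-cKO cases. The control barcode held 331 UMIs of *S100a8* and *S100a9*. Of the *Cnot3*-cKO barcodes, 3 held 383, 84 and 94 UMIs of that pair and 3 held 13, 6 and 10 UMIs of *C1qa*, *C1qb* and *C1qc*.

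For 3 genes the whole counting interval lay past 2-fold in C1q-positive macrophages and on the other side of 0 in interstitial barcodes, a difference that was not tested. Of 4088 genes measured in C1q-positive cells, 96 (2.35%) were at least 2-fold higher in *Cnot3*-cKO, whatever their interstitial ratio. No share over all genes is given for both limits together, so the count is a description. *Mcm5*, a subunit of the replicative helicase, had a log2 ratio (*Cnot3*-cKO to control) of 2.33 in macrophages (6 and 49 UMIs) and -0.36 in interstitial barcodes. *RP24-64D24.4* had 2.98 (14 and 180 UMIs) and -0.20. *Dnmt1*, the maintenance DNA methyltransferase, had 1.88 (14 and 84 UMIs) and -0.18.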

How the results depend on the processing

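No value past 2-fold over all members changed sign (0 reversed). For the genes with the highest and lowest limits over all members this says little, because each had 0 UMIs in 1 library and could hardly reverse. Alternatives that left such a gene 3 or fewer UMIs gave no value. Of 75 values of genes and lists 14 changed sign, and all 14 lay within 2-fold, among them *C1qa*, *Mrc1*, *Csf1r*, *H2-Ab1* and the cell cycle median. Of 136 values of the comparisons 112 stayed near the main value, and the *Cnot3* ratio and the MHC class II median crossed 0. No paired analysis was possible because each genotype's samples are merged in 1 matrix, and for the same reason no sample could be left out. A mitochondrial limit of 10% gave member shares of 0.644% and 0.840%. Leaving out cells with 5 or more UMIs of the other immune lists gave 0.280% and 0.444%, 38 genes lower and an MHC class II median of -1.38. The MHC class II median, -0.78 over all members, was -1.81 with an immune minimum of 10 UMIs, -0.90 and -1.31 with stromal and Sertoli limits of 0.25% and 1%, -0.94 as a mean over cells and -0.99 in thinned cells. The genes higher and lower, 85 and 78, were 35 and 15 in thinned cells, 28 and 16 with a minimum of 200 UMIs per gene, and 847 and 970 with no minimum. With cells weighted equally 139 were higher. The *Cnot3* log2 ratio was 1.36 in thinned cells, where fewer UMIs of the gene remain, and has no interval. Alternatives chosen after seeing the data were the C1q-positive cells alone (control share 0.325%, 24 genes lower, MHC class II median 0.0097), leaving out members over 50 Sertoli UMIs (-0.90) and leaving out the 3 highest cells of each library (-1.31). The cause of these shifts was not tested. Around the log2 ratios over all members, the alternatives that gave a value kept *Hmox1* (1.77) between 1.31 and 1.86 and *Fos* (1.91) between 1.32 and 2.09. *H2-K1* (-0.68) stayed between -0.93 and -0.63, while *Cd9* ran from -0.02 to 1.19. The C1q-positive cells were 1 of these alternatives, and their own ratios were not varied further.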
